A study of Homo sapiens with 24 samples.

Results

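Cholesterol and fatty acid synthesis genes, 31 beside the 20045 genes named on the arrays, were followed in HB2 cells whose long noncoding RNA GNG12-AS1 was targeted with siRNA. The 31 genes were chosen by name: the enzymes that build cholesterol, the enzymes that build and desaturate fatty acids, and the sterol sensors and transcription factors that control both. Of these, 30 had a probe in the annotation used, with 44 probes among the 47228 analysed. No probe of FDFT1, the squalene synthase gene, was in that annotation. A filter on dim probes left 28 of them among the 11029 genes tested. SREBF2, the sterol-pathway transcription factor gene, was left out because its probe was above background on 5 of the 24 arrays, and STARD4, a sterol transfer protein gene, because its probe was above background on 1 array.

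HB2 is an immortalized human mammary epithelial line, so all samples come from 1 line. Cells were kept in medium with serum, insulin and hydrocortisone and were transfected, with the same reagent in every group, at 50 nM with siRNA for 48 h. The siRNA was a control or one of 3 against GNG12-AS1, named here by its target: exon 1, exon 7 or exon 9. Each of the 4 groups has 6 RNA samples, which the labels call biological replicates, on Illumina bead arrays with 1 sample per array. The titles put 1 array of every group in each of 6 experiments, which are replicates 1 to 6 here. An untransfected group was not analysed here, and no probe used here carried the name GNG12-AS1, so the knockdown was not checked. All levels are normalised log2 intensities of 1 probe, so they were compared between arrays and not between genes. The small number of arrays limits how precisely each is known.

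As background, animal cells make cholesterol from acetyl-CoA through the mevalonate pathway, then squalene and lanosterol, and make fatty acids from the same acetyl-CoA through malonyl-CoA. Both sets of enzymes are switched on by the transcription factors SREBP-1 and SREBP-2, which are made as membrane proteins, escorted by SCAP from the endoplasmic reticulum to the Golgi and cut there by 2 proteases. When sterols are plentiful, INSIG1 and INSIG2 hold SCAP back. In mammary epithelium the pathway is known for supplying milk fat, and in cultured cells for supplying new membrane.

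Across arrays, 34.2% to 39.5% of probes were above background. The epithelial markers KRT5, KRT8, KRT18, KRT19, EPCAM, CDH1 and ITGB4 were above background on all 24 arrays and passed in no comparison with control. KRT14 was above background on 0 arrays, and KRT17 and TP63 had no probe in the annotation used. The 4 arrays of replicate 2 correlated less with the other arrays, with median correlations of 0.979 to 0.983, than 19 of the remaining 20 (0.984 to 0.986), the exception being exon 1 replicate 1 (0.981). Results are therefore also given without replicate 2. The deposited table holds the arrays as 2 sets of 12 columns, each with 3 arrays of every group. The columns name no chip, and values within each set are given beside the pooled ones. In bulk RNA such as this, fewer cells of a type and less RNA per cell cannot be told apart.

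The promoters of many of these genes carry the CCAAT box, the site of NF-Y, a general factor known to act together with SREBPs. A window from 250 bases before to 50 bases after the start was taken from RefSeq on GRCh38.p14 for 27 of the 31 genes. CCAAT, on either strand, was in the windows of 39.7% of all 27305 genes and in 13 of 15 sterol enzymes, 4 of 6 fatty acid enzymes and 3 of 6 regulators. At least 2 copies were in 12.9% of all genes and in 10 of the 15 sterol enzymes. The core of the sterol response element, TCACNCCAC, was in 1.39% of genes and, among the members, in SREBF2 alone. The element ATCACGTGA was in 0.308% of genes and, among the members, in INSIG1 alone, and none of the 3 motifs contains another. These matches describe letters and not binding. The 250 bases upstream of 3 genes that rose in a comparison with the exon 1 siRNA, MVD, LSS and MSMO1, and of the sterol sensor INSIG1 are printed to show how the boxes lie. Capitals mark CCAAT or its complement ATTGG and, in INSIG1, TCACGTGAT, the complement of ATCACGTGA. For MVK a stretch of 30 bases with 2 of its 5 boxes is printed.
MVK, chr12:109573694-109573723, plus strand: tattgaCCAATgttcaagcctATTGGtaaa
MVD, chr16:88663092-88663341, minus strand: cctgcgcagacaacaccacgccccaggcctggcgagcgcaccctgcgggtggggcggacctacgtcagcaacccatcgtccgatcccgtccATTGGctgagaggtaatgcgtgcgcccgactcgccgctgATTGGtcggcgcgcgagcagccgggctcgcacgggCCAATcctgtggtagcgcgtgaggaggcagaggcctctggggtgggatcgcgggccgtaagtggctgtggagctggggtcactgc
LSS, chr21:46228775-46229024, minus strand: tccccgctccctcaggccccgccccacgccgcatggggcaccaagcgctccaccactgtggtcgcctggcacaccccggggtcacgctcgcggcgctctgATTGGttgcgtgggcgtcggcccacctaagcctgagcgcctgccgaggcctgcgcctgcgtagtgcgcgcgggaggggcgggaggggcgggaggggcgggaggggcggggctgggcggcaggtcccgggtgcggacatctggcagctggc
MSMO1, chr4:165327419-165327668, plus strand: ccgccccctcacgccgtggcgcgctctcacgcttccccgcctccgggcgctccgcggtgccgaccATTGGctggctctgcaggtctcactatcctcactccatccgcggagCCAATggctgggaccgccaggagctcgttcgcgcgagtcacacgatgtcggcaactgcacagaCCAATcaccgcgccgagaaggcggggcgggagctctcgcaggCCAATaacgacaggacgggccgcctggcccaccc
INSIG1, chr7:155297628-155297877, plus strand: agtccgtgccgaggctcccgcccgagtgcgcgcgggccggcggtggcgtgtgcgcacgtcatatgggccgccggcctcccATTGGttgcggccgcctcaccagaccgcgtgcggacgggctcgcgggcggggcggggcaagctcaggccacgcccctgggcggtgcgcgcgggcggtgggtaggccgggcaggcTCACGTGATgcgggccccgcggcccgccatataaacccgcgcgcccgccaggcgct
MVD thus holds 3 boxes, MSMO1 4 and LSS 1 in these stretches. The printed stretches of MVD, LSS and MSMO1 overlap no annotated gene, that of MVK overlaps the MVK gene itself and that of INSIG1 overlaps INSIG1-DT. The windows of ELOVL6, FADS1, PMVK, CYP51A1, INSIG2, SCAP and SREBF1 held none of these motifs. Those of ACLY and SCD, which fell under exon 1, held up to 2 CCAAT boxes, and those of FADS2 up to 1. NSDHL held 5 and EBP, FDPS and IDI1 up to 3 each, and these genes did not pass in the main fit.

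With the siRNA against exon 1, enzymes of the 2 pathways moved in different directions. Of 17 sterol enzymes 3 rose and 0 fell, and of 7 fatty acid enzymes 0 rose and 3 fell. The 3 include ACLY, which is counted with the fatty acid enzymes here but supplies acetyl-CoA to both pathways. None of the 4 regulators tested passed in limma's fit, with 2 at an unadjusted p below 0.05. These 6 of 28 members (21.4%) passed an adjusted p of 0.05 in limma's fit over all genes, against 10% of all genes tested (5.18% higher and 4.86% lower). The median log2 difference from control was 0.16 over the sterol enzymes, with 13 of 17 above 0, and -0.18 over the fatty acid enzymes, with 7 of 7 below 0, while that of all genes tested was 0.01. Within the first and the second set of columns the medians were 0.05 and 0.29 for sterol enzymes and -0.14 and -0.22 for fatty acid enzymes. Without replicate 2, 2 members rose (MVK and LSS) and 1 fell (ELOVL6). The plot of differences from control shows all 28 members.

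**Figure D1:**
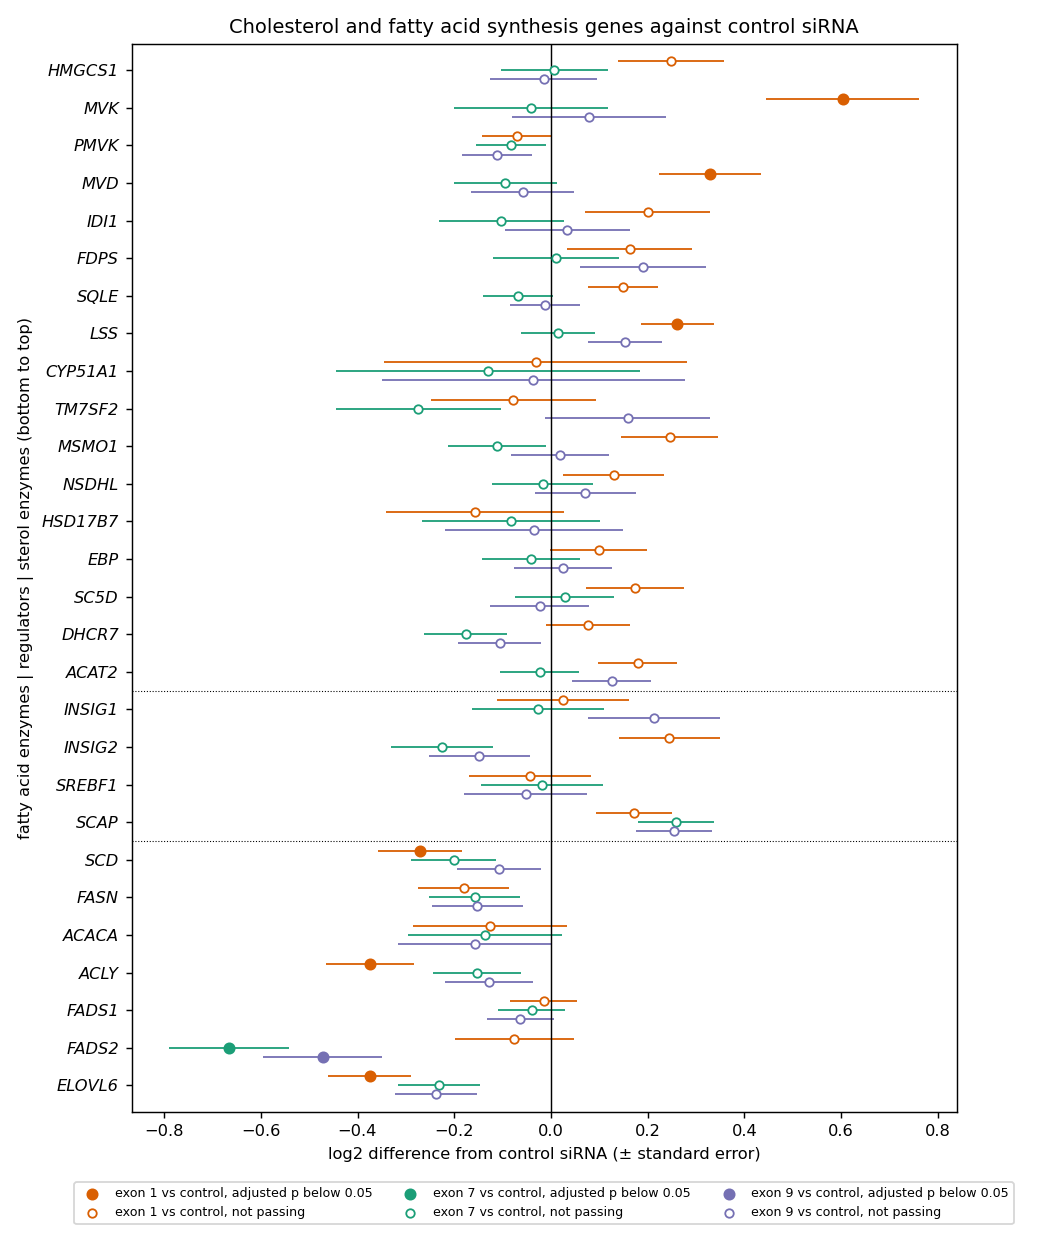
Log2 difference from control siRNA (x axis, points with standard error bars) for 28 genes (y axis) under the siRNAs against exon 1, exon 7 and exon 9, with filled points for an adjusted p below 0.05. Under exon 1, MVK, MVD and LSS stand to the right and ELOVL6, ACLY and SCD to the left; FADS2 is the member that passed under exon 7 and exon 9.

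MVK, which codes for mevalonate kinase, showed the largest difference among the members under exon 1. Its control arrays lay between 7.52 and 8.13 with a median of 7.65, and its exon 1 arrays between 7.80 and 8.68 with a median of 8.45. Levels under exon 7 were 7.15 to 8.11 (median 7.76) and under exon 9 7.62 to 7.94 (median 7.92). All 6 exon 1 arrays were above the control mean, although 1 of them lay within the control range. MVK rose by 0.60 ± 0.16 (log2, SE, n = 6 per group; 1.52-fold; adjusted p = 0.0150), by 0.51 and 0.69 within the column sets. Without background correction, and in the authors' normalized values, the rise was 0.40 (adjusted p = 0.0083 in both). In each of the 6 experiments the exon 1 array was above the control array, by 0.12 to 1.06.

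MVD, the decarboxylase that ends the mevalonate steps, rose as well. Control arrays had levels of 8.89 to 9.34 (median 9.11) and exon 1 arrays 9.22 to 9.55 (median 9.46), so the groups overlapped at their edges. Exon 7 arrays spanned 8.56 to 9.24 (median 9.06) and exon 9 arrays 8.79 to 9.21 (median 9.07). The rise was 0.33 ± 0.11 (adjusted p = 0.0492), 0.28 and 0.38 within the sets and above control in 6 of 6 experiments. In the fit without a replicate block this call stood at the threshold. There it was lost on leaving out any single array of the 12 other than control replicate 2 or exon 1 replicate 4 (adjusted p up to 0.111), and without replicate 2 (0.0694). Array weights (0.0634), no filter on dim probes (0.0776) and every kept probe (0.0668) also ended it. With the experiment number as a replicate block and all arrays, the adjusted p was 0.0204, where 18.7% of all genes were called.

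LSS, the lanosterol synthase that closes the sterol ring system, separated the groups completely. Its level was 9.79 to 10.04 on control arrays (median 9.93) and 10.09 to 10.31 on exon 1 arrays (median 10.16). Under exon 7 it was 9.70 to 10.08 (median 9.97), and under exon 9 it was 9.81 to 10.20 (median 10.12). No exon 1 array reached down to the control range, which 4.46% of all genes tested also showed in 1 direction or the other and 2 of the 28 members did, LSS and ELOVL6. The rise was 0.26 ± 0.08 (adjusted p = 0.0291), 0.22 and 0.30 within the sets. It was lost when control array 1, 4 or 6 or exon 1 array 3 or 6 was left out (adjusted p up to 0.0738). The call was also lost when the compared groups were fitted alone (0.0527). With the replicate block and all arrays the adjusted p was 0.00658, where 18.7% of all genes were called. A second, dimmer LSS probe, above background on 16 arrays, differed by 0.11 ± 0.20, and the mean of both probes by 0.18 (adjusted p = 0.373).

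The other sterol enzymes did not pass in this fit. HMGCS1, which makes the precursor of mevalonate, had control levels of 10.59 to 11.05 (median 10.92) and exon 1 levels of 10.67 to 11.38 (median 11.16), a difference of 0.25 ± 0.11 (adjusted p = 0.171). SQLE, the squalene epoxidase, had 12.14 to 12.46 (median 12.30) and 12.35 to 12.56 (median 12.44), a difference of 0.15 ± 0.07 (adjusted p = 0.220). For both genes the exon 1 array was above the control array in 6 of 6 experiments, with overlapping groups. Exon 7 levels were 10.57 to 11.14 for HMGCS1 (median 10.91) and 12.04 to 12.36 for SQLE (median 12.23). Exon 9 levels were 10.71 to 11.12 (median 10.79) and 12.14 to 12.45 (median 12.27). No exon 7 or exon 9 group of either gene stood clear of control. MSMO1, a sterol methyl oxidase, differed by 0.25 ± 0.10 (adjusted p = 0.136) and SC5D, a sterol desaturase, by 0.17 ± 0.10 (adjusted p = 0.330). With the experiment number as a replicate block in the fit, both passed (adjusted p of 0.0203 and 0.0297), against 18.7% of all genes called in that fit. MSMO1 differed between the column sets, 0.01 and 0.48, and between its 3 probes, 0.25, 0.44 and -0.13. The 10 remaining sterol enzymes lay between -0.16 for HSD17B7 and 0.20 for IDI1.

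ELOVL6, the elongase that carries palmitate to stearate, fell under exon 1. Control arrays had levels of 9.96 to 10.43 (median 10.20) and exon 1 arrays of 9.58 to 9.95 (median 9.87). Levels were 9.88 to 10.13 (median 9.97) under exon 7 and 9.79 to 10.13 (median 10.00) under exon 9. Every exon 1 array lay below every control array. The change was -0.38 ± 0.08 (adjusted p = 0.00518), -0.48 and -0.27 within the sets, and the adjusted p stayed below the threshold without any 1 array and without replicate 2 (0.0214), but not under median scaling (0.0614), where ELOVL6, SCD (0.0941) and MVD (0.0552) lost their calls and the fatty acid enzymes that fell went from 3 to 1. Its second probe differed by -0.27 ± 0.11 (adjusted p = 0.140 over all probes).

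ACLY, the ATP citrate lyase that supplies acetyl-CoA to both pathways, fell by a similar amount. Its control range was 12.20 to 12.66 (median 12.49) and its exon 1 range 11.86 to 12.22 (median 12.09), an overlap by 1 array. The exon 7 range was 12.15 to 12.44 (median 12.28) and the exon 9 range 12.13 to 12.49 (median 12.29). ACLY changed by -0.37 ± 0.09 (adjusted p = 0.00879), by -0.41 and -0.34 within the sets, and was lower in 6 of 6 experiments. Without replicate 2 the difference was -0.33 and the adjusted p 0.0511. A second probe differed by -0.27 ± 0.13 (adjusted p = 0.223 over all probes).

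SCD, the stearoyl-CoA desaturase, fell by less. Control levels were 13.07 to 13.39 (median 13.21), exon 1 levels 12.60 to 13.10 (median 13.01), exon 7 levels 12.86 to 13.21 (median 12.99) and exon 9 levels 12.90 to 13.28 (median 13.12). Only the upper end of the exon 1 group reached the control range. The change was -0.27 ± 0.09 (adjusted p = 0.0480), -0.39 and -0.16 within the sets. It was lost without control replicate 2, 3, 5 or 6, without exon 1 replicate 1, 2, 4 or 6, and without replicate 2 as a whole (-0.23, adjusted p = 0.187). The compared groups alone (0.115), array weights (0.0832), no filter on dim probes (0.0731) and every kept probe (0.0672) also ended the call. With the replicate block and all arrays the adjusted p was 0.00453, where 18.7% of all genes were called.

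FASN, the fatty acid synthase, and ACACA, the acetyl-CoA carboxylase, did not pass under any siRNA. FASN levels were 13.11 to 13.44 on control arrays (median 13.30) and 12.81 to 13.22 on exon 1 arrays (median 13.12), a difference of -0.18 ± 0.09 (adjusted p = 0.261). FASN arrays spanned 12.83 to 13.35 under exon 7 (median 13.07) and 12.90 to 13.32 under exon 9 (median 13.11). The ranges overlapped in each comparison. ACACA spanned 10.21 to 11.11 on control arrays (median 10.76), 10.22 to 10.99 under exon 1 (median 10.64), 10.19 to 10.96 under exon 7 (median 10.58) and 10.19 to 10.89 under exon 9 (median 10.58). FADS1, a desaturase of polyunsaturated fatty acids, spanned 11.30 to 11.54 (median 11.46), 11.23 to 11.55 (median 11.47), 11.22 to 11.51 (median 11.40) and 11.20 to 11.47 (median 11.39) in the same order. Both genes thus had nearly the same range in every group, with differences from control of -0.13 to -0.16 for ACACA and -0.01 to -0.06 for FADS1.

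**Figure D2:**
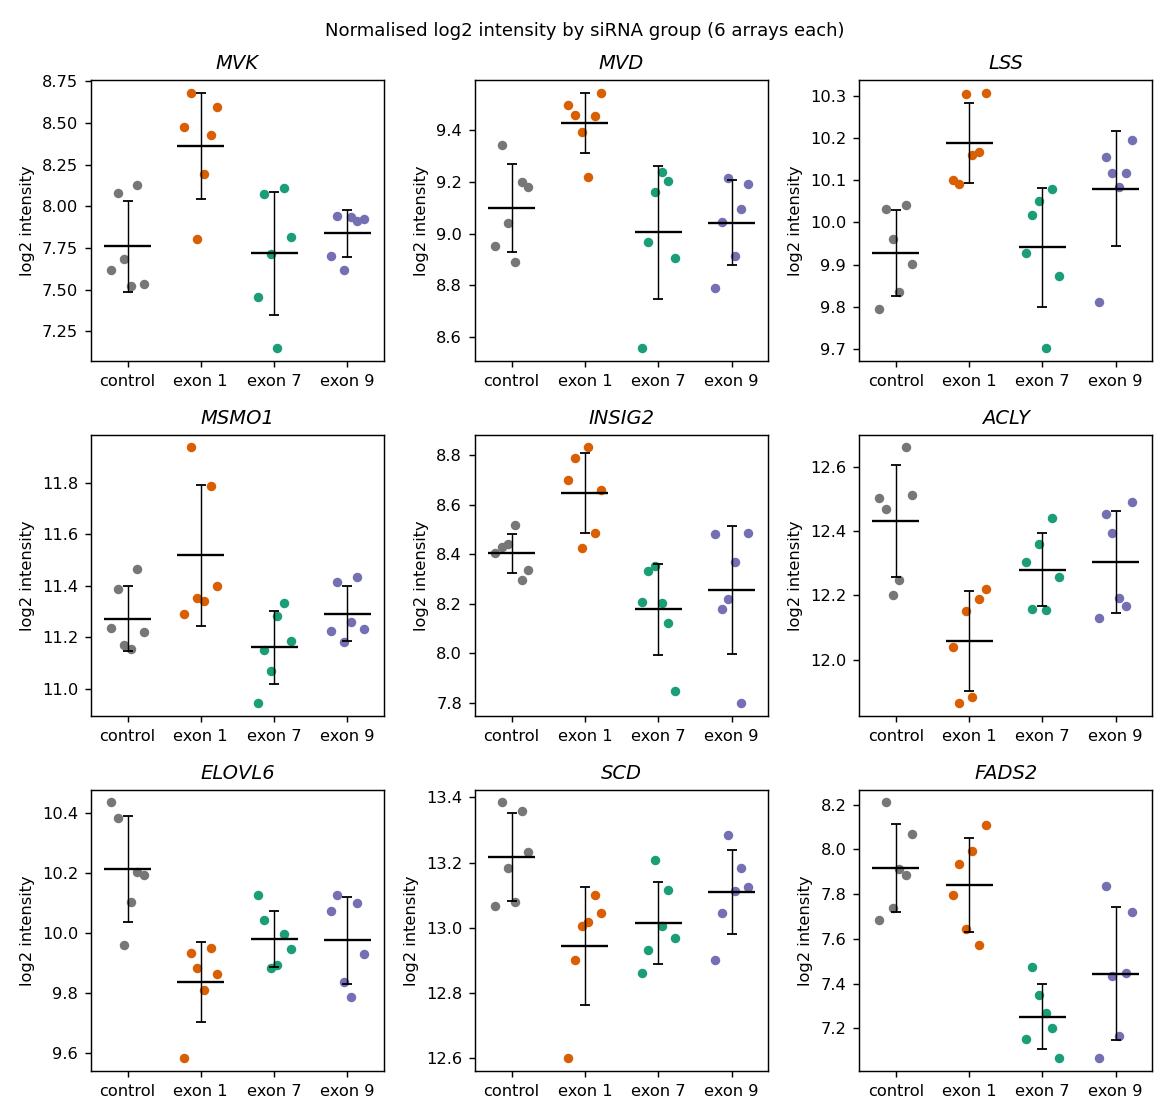
Normalised log2 intensity (y axis) of 9 genes on each array of the control, exon 1, exon 7 and exon 9 siRNA groups (x axis), with 6 points per group in order of replicate number, bars for the mean and error bars for the SD. LSS and ELOVL6 separate exon 1 from control, and FADS2 separates exon 7 from both control and exon 1.

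FADS2, a desaturase that acts early in making long polyunsaturated fatty acids, was the 1 member that passed against control under exon 7 and under exon 9. Its control levels were 7.69 to 8.21 (median 7.90) and its exon 1 levels 7.57 to 8.11 (median 7.87). Exon 7 levels were 7.07 to 7.47 (median 7.23) and exon 9 levels 7.07 to 7.83 (median 7.44). Every exon 7 array lay below every control and every exon 1 array, while the exon 9 group overlapped both. Under exon 7 FADS2 fell by 0.67 ± 0.12 on the log2 scale (1.59-fold lower; adjusted p = 0.00314), with changes of -0.77 and -0.56 within the sets and an adjusted p of 0.00626 without replicate 2. In this comparison 1.92% of all genes were called (1.14% higher and 0.78% lower), and 1.86% had groups that did not overlap. Under exon 9 FADS2 changed by -0.47 ± 0.12 (adjusted p = 0.0299), by -0.34 and -0.60 within the sets, where 3.63% of all genes were called (1.96% higher and 1.67% lower) and 2.94% had groups that did not overlap. That call was lost when exon 9 array 1, 3, 4 or 5 or control array 2 or 6 was left out (adjusted p up to 0.0879) and held without replicate 2 (0.0331). Without background correction the changes were smaller, -0.39 under exon 7 and -0.28 under exon 9, as they were in the authors' normalized values, and both passed (adjusted p up to 0.00346 and 0.0322). Median scaling (0.0652) and the compared groups alone (0.0892) ended the exon 9 call. Under exon 1 the difference was -0.08 (adjusted p = 0.783).

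The fatty acid enzymes as a group lay below control under all 3 siRNAs. The median over the 7 was -0.16 under exon 7, with 1 called, and -0.15 under exon 9, with 1 called, and 7 of 7 were below control each time, against medians of all genes tested within 0.01 of 0. The 3 comparisons share the same control arrays. Within the column sets the medians were -0.13 and -0.22 under exon 7 and -0.07 and -0.23 under exon 9. Sterol enzymes had 0 of 17 called under either siRNA, with 0 at an unadjusted p below 0.05, and medians of -0.07 under exon 7 and 0.02 under exon 9. With a replicate block ELOVL6 also passed under exon 9 (-0.24 ± 0.08, adjusted p = 0.141 without and 0.0461 with the block), where 9.24% of all genes did.

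Among the regulators, none passed against control in the main fit, which held no block. Under median scaling and under cyclic loess, also without the block, 1 of the 4 was called higher under exon 9. Of all 11029 genes, 151 and 236 were called higher there. SCAP, the escort protein, had levels of 10.06 to 10.52 on control arrays (median 10.30), 10.28 to 10.61 under exon 1 (median 10.47), 10.41 to 10.72 under exon 7 (median 10.49) and 10.40 to 10.66 under exon 9 (median 10.53). The siRNA groups lay in and above the upper part of the control range. SCAP differed by 0.26 ± 0.08 under exon 7 and 0.25 ± 0.08 under exon 9 (adjusted p = 0.102 and 0.0726), above control in 6 of 6 experiments each. With the replicate block both passed (0.0195 and 0.0126), so that the members called went from 1 to 2 under exon 7, where that fit called 5.26% of all genes, and from 1 to 3 under exon 9. SREBF1, the gene of SREBP-1, had a control range of 9.07 to 9.61 (median 9.48), and ranges of 9.17 to 9.64 (median 9.40), 8.92 to 9.63 (median 9.52) and 8.94 to 9.68 (median 9.39) under exon 1, exon 7 and exon 9. The 4 ranges nearly coincide. A second SREBF1 probe, also above background on all arrays, differed by 0.35, 0.30 and 0.14 in that order (adjusted p = 0.116, 0.375 and 0.734 over all probes), and another was at background.

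INSIG1, a direct SREBP target that holds SCAP back, had control levels of 10.18 to 10.93 (median 10.63), exon 1 levels of 10.25 to 11.03 (median 10.64), exon 7 levels of 10.18 to 10.85 (median 10.56) and exon 9 levels of 10.61 to 10.97 (median 10.77). No group stood apart, and the differences from control were 0.02, -0.03 and 0.21. Its second probe gave 0.01, 0.48 and -0.05, none past the threshold. INSIG2, the related sensor, had levels of 8.30 to 8.52 (median 8.42) on control arrays and 8.43 to 8.83 (median 8.68) under exon 1. It spanned 7.85 to 8.35 (median 8.21) under exon 7 and 7.80 to 8.49 (median 8.29) under exon 9. The control median lay below that of exon 1 and above those of exon 7 and exon 9, and the differences from control of 0.24, -0.23 and -0.15 did not pass (adjusted p = 0.156, 0.396 and 0.566).

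The siRNAs were also compared with each other. Control levels do not enter these differences, but the control arrays still enter the normalisation and the shared estimate of the spread. Against exon 7, 6 of 28 members were higher under exon 1 and 0 lower, where 11.5% of all genes were called (5.99% higher and 5.54% lower). MVK was higher by 0.64 ± 0.16 (adjusted p = 0.00867) and MVD by 0.42 ± 0.11 (0.00992). INSIG2 was higher by 0.47 ± 0.11 (0.00433; 0.50 and 0.44 within the sets) and FADS2 by 0.59 ± 0.12 (0.00247; 0.73 and 0.45). These 4 kept their calls without any 1 array and without replicate 2, although without background correction the difference was 0.42 for MVK and 0.34 for FADS2. LSS was higher by 0.25 ± 0.08 (0.0350), a call lost without exon 1 replicate 3 or 6, exon 7 replicate 1, 4 or 6, or replicate 2 as a whole (0.0502). It was also lost when the compared groups were fitted alone (0.0806). LSS, INSIG2 and FADS2 were the 3 members whose exon 1 and exon 7 groups did not overlap, as for 5.08% of all genes.

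MSMO1 showed its clearest difference here, with levels of 11.29 to 11.94 (median 11.38) under exon 1 and 10.94 to 11.33 (median 11.17) under exon 7. On control arrays it had spanned 11.15 to 11.47 (median 11.23) and under exon 9 11.18 to 11.44 (median 11.25). The exon 1 group held 2 arrays above every other array of the 24, and the rest of it overlapped the other groups. The difference was 0.36 ± 0.10 (adjusted p = 0.0220; 0.23 and 0.49 within the sets), lost without exon 1 replicate 2 or 5, without exon 7 replicate 1 and without replicate 2 (0.104). MSMO1 also lost this call when the compared groups were fitted alone (0.0877). Its second probe differed by 0.60 (adjusted p = 8.43e-04 over all probes) and the remaining one by -0.07. With the replicate block SQLE and DHCR7, the reductase of the last step to cholesterol, also passed (0.0079 and 0.0429), where 20% of all genes did. Both passed as well with the column set as the block (0.0438 and 0.0136).

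Against exon 9, 4 of 28 members were higher under exon 1 and 0 lower, where 8.35% of all genes were called (4.29% higher and 4.06% lower). They were MVK (0.52, adjusted p = 0.0399), MVD (0.39, 0.0226), INSIG2 (0.39, 0.0195) and FADS2 (0.40, 0.0467). MVD alone had groups that did not overlap, as did 4.42% of all genes. Each of the 4 calls was lost on leaving out some single array: INSIG2 without exon 1 replicate 2 or exon 9 replicate 5, MVD without replicate 1 or 6 of exon 1 or 1 or 4 of exon 9, FADS2 without replicate 1, 2, 4 or 6 of exon 1 or 1, 3, 4 or 5 of exon 9, and MVK without replicate 1, 2, 5 or 6 of exon 1 or any replicate of exon 9 but 2. Without replicate 2 FADS2 alone passed (0.0296). When the compared groups were fitted alone, INSIG2 (0.0724) and FADS2 (0.116) did not pass. Without background correction, and in the authors' normalized values, the FADS2 difference was 0.23 and did not pass (0.0531 and 0.0532), and it and MVK did not pass under median scaling (0.0623 and 0.0503). With the replicate block 9 members passed, with HMGCS1, SQLE, MSMO1 and SC5D added among the 8 higher and ACLY as the 1 lower, where 16.9% of all genes did. Between exon 7 and exon 9 limma called 0 members, with 1 at an unadjusted p below 0.05, while 4.2% of all genes were called (2.22% higher and 1.98% lower). No member had groups that did not overlap here, as 3.25% of all genes had. The block added TM7SF2, a sterol reductase (-0.43, adjusted p = 0.00444), where it called 9.67% of all genes.

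Variation between experiments touched these genes as well. Within the siRNA groups, the replicate number had an effect on 10 of 28 members (35.7%) at an adjusted p below 0.05 in limma's F test, against 27.2% of all genes; without replicate 2 the counts were 7 members and 14.1% of all genes. The 10 were MVK, TM7SF2, MSMO1, NSDHL, SC5D, INSIG1, SREBF1, SCD, ACACA and FADS1. In replicate 1, 26 of 28 members, and 17 of 17 sterol enzymes, lay below their group means on average over its 4 arrays. It was the lowest number for 18 of 28 members, while 5694 of all 11029 genes lay below their group means there and 1497 were lowest. TM7SF2 spanned the widest range between numbers, 0.81 (adjusted p = 3.96e-04), and in replicate 1 its mean departure from the group means was -0.53. Replicate 4 was instead the lowest for SREBF1 (-0.37) and for ACACA (-0.43).

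**Figure D3:**
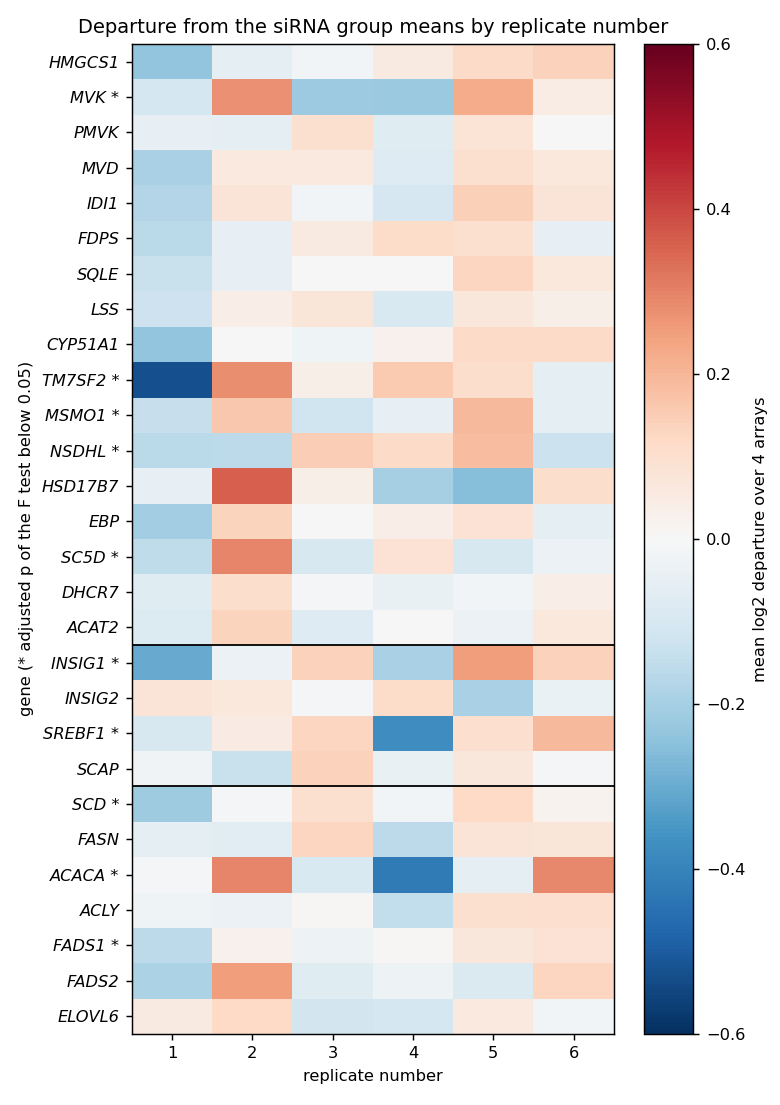
Mean departure from the siRNA group means (colour, log2, over 4 arrays) for 28 genes (rows) in replicates 1 to 6 (columns), with an asterisk for an adjusted p of the F test below 0.05. Replicate 1 is blue, below the group means, for 26 of 28 genes, and replicate 4 is darkest for SREBF1 and ACACA.

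The members also varied together from array to array once group means were removed. The mean Pearson correlation over pairs of members was 0.181 over the 24 arrays, 0.196 among sterol enzymes, 0.281 among fatty acid enzymes and 0.191 between the 2 sets, against 0.011 over all pairs of genes tested. These values describe arrays that share experiments and column sets. SQLE and INSIG1 were the closest pair (0.753), followed by IDI1 and CYP51A1 (0.733), TM7SF2 and SCD (0.716), and HMGCS1 and SQLE (0.707). CYP51A1 was split by column set, with levels of 8.06 to 9.04 in the first and 9.32 to 9.89 in the second. Column sets were not removed here, and their part in the pair of IDI1 and CYP51A1 was not tested. SREBF1 lay closest to ACACA (0.693). SCD (0.735) and INSIG1 (0.718) followed the mean of the other members most closely and INSIG2 least (-0.216). The 5 other genes most like the mean of the members were CAPN1 (0.823), SPOCK2 (0.817), PSCA (0.811), KLK6 (0.811) and NDUFA2 (0.797).

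Genes that process SREBPs were read from a list of 10, of which 7 were tested. Of these, 3 rose under exon 1, 1 under exon 7 and 2 under exon 9, and 0 fell, while 5.18%, 1.14% and 1.96% of all genes were called higher. MBTPS1, the protease that makes the first cut in SREBPs, had levels of 10.10 to 10.37 on control arrays (median 10.21), 10.68 to 10.81 under exon 1 (median 10.77), 10.40 to 10.67 under exon 7 (median 10.53) and 10.77 to 11.03 under exon 9 (median 10.82). All 18 siRNA arrays lay above all 6 control arrays, which the 3 comparisons share. Groups did not overlap for 4.46%, 1.86% and 2.94% of all genes under exon 1, exon 7 and exon 9. MBTPS1 rose by 0.53, 0.31 and 0.63, each ± 0.06 (adjusted p = 2.54e-06, 0.00562 and 3.56e-07), with 0.52 and 0.55, 0.32 and 0.31, and 0.68 and 0.58 within the sets. Its second probe gave 0.65, 0.29 and 0.67. The 3 calls held without any 1 array and without replicate 2. That under exon 7 was lost under median scaling (adjusted p = 0.0818), with the mean of the probes (0.118) and with the compared groups alone (0.0564).

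PAQR3, which tethers SCAP to the Golgi, spanned 7.30 to 7.74 on control arrays (median 7.45), 7.67 to 8.12 under exon 1 (median 7.86), 7.20 to 7.68 under exon 7 (median 7.52) and 7.61 to 8.10 under exon 9 (median 7.91). It rose by 0.37 under exon 1 and under exon 9 (adjusted p = 0.0199 and 0.0381), and differed by -0.02 under exon 7. Without background correction the 2 differences were 0.22, and the exon 9 call was lost (0.0501), as it was in the authors' normalized values (0.0504) and under median scaling (0.0969). Neither call held without replicate 2 (0.0755 and 0.105). The first was also lost on leaving out control array 4 or exon 1 array 1, and the other on leaving out control array 1, 2, 3 or 4 or exon 9 array 1, 4, 5 or 6. SPRING1, a partner of SCAP and of the first protease, spanned 7.77 to 8.17 on control arrays (median 7.96), 8.07 to 8.45 under exon 1 (median 8.35), 7.997 to 8.25 under exon 7 (median 8.12) and 7.54 to 7.96 under exon 9 (median 7.74). It rose by 0.36 ± 0.09 under exon 1 (adjusted p = 0.0103; 0.16 and 0.56 within the sets). Under exon 9 it differed from control by -0.23 (0.175) and was lower than under exon 1 by 0.59.

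**Figure D4:**
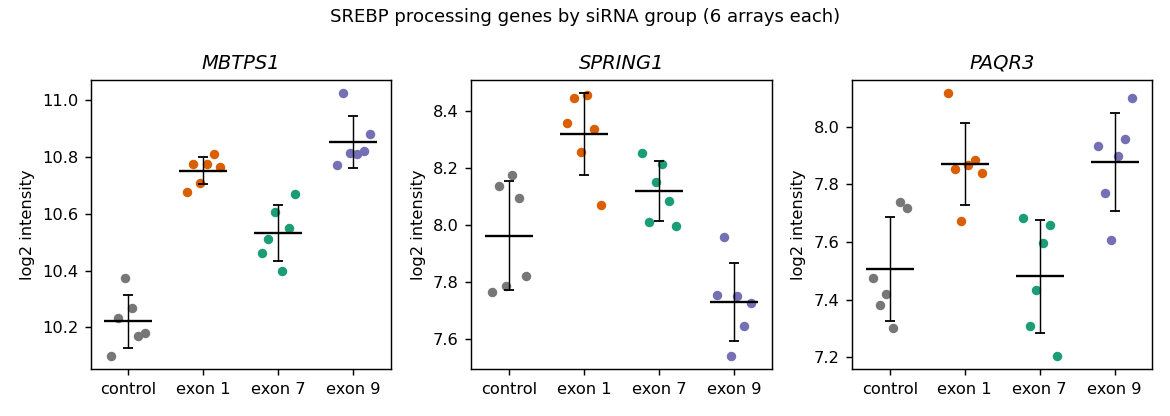
Normalised log2 intensity (y axis) of MBTPS1, SPRING1 and PAQR3 on each array of the 4 siRNA groups (x axis), with 6 points per group, bars for the mean and error bars for the SD. For MBTPS1 the 6 control arrays lie below all siRNA arrays.

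Of 13 sterol transport and storage genes tested, 2 rose and 1 fell under exon 1, where 10% of all genes were called, and the median of the 13 was 0.16. CAV1, the caveolin of cholesterol-rich membrane pits, rose by 0.31 ± 0.07 (adjusted p = 0.0061), and NPC2, which carries cholesterol out of lysosomes, by 0.22 (0.0494). TMEM97, a sterol-regulated membrane protein, changed by -0.22 (0.0350). OSBPL1A, an oxysterol-binding-protein relative, changed by -0.43 under exon 7 (0.0392), where 1.92% of all genes were called. Of the 13, 0 passed under exon 9, with 0 at an unadjusted p below 0.05, where 3.63% of all genes were called. Of 13 genes of the isoprenoid branches 1 was called under exon 1, against 10% of all genes. It was ICMT, which methylates prenylated proteins and rose by 0.22 (0.0432). In this list 0 passed under exon 7 or exon 9, with 2 and 1 at an unadjusted p below 0.05.

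Of 18 genes of fatty acid supply and use 1 was called under exon 1, against 10% of all genes. It was ACSL4, which activates long polyunsaturated fatty acids and fell by 0.42 ± 0.10 (adjusted p = 0.0074; -0.57 and -0.27 within the sets). The list had 0 called under exon 7 and under exon 9, against 1.92% and 3.63% of all genes, with 1 each at an unadjusted p below 0.05. A dimmer ACSL4 probe, above background on 15 arrays, differed by 0.09, and with the mean of the probes the difference was -0.17 and did not pass (0.364). The medians of the 3 lists were between -0.05 and 0.16 in the comparisons with control. The calls of CAV1 and ACSL4 held without any 1 array and without replicate 2; those of the other 4 genes did not hold without replicate 2 (adjusted p of 0.112 for NPC2, 0.156 for TMEM97, 0.219 for OSBPL1A and 0.0952 for ICMT). They were also lost with single arrays left out, numbered by replicate: NPC2 on omission of control array 1, 2, 4 or 6 or exon 1 array 1, 2, 4, 5 or 6, TMEM97 of control array 2, 4 or 5 or exon 1 array 1 or 2, ICMT of control array 1, 3, 4 or 6 or exon 1 array 1, 2, 4 or 6, and OSBPL1A of control array 2, 4, 5 or 6 or exon 7 array 1, 2, 4 or 6.

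Markers of other cell types were read beside these results. Of 6 immune markers 2 were tested, and CD14 was lower under exon 1 by 0.80 ± 0.16 (adjusted p = 0.00174) and under exon 9 by 0.72 (0.00994). CD68 differed there by -0.03 and -0.20 and did not pass (0.929 and 0.476). The summed normalised intensity of the 2, on the linear scale, was 2150 to 3256 on control arrays, 1484 to 2041 under exon 1, 1812 to 3161 under exon 7 and 1470 to 2254 under exon 9. The defining immune markers PTPRC, CD3E and LYZ were above background on 0 arrays. Of 8 fibroblast markers 4 were tested, and THY1 was lower under exon 7 by 0.38 (0.0311), where FADS2 also fell. The others did not pass there: COL1A2 differed by -0.36 (0.170), COL1A1 by 0.07 (0.946) and DCN by 0.22 (0.646). COL1A2, COL1A1 and DCN were above background on 15, 16 and 8 arrays. The summed intensity of the 4 was 2664 to 3312 on control arrays, 2958 to 4158 under exon 1, 2072 to 2540 under exon 7 and 2349 to 2853 under exon 9. PDGFRA and PDGFRB were above background on 0 arrays, and the part of THY1 and the other 3 fibroblast genes in the FADS2 result was not tested. Between siRNAs, THY1 was higher under exon 1 than under exon 7 by 0.52 (adjusted p = 6.23e-04) and than under exon 9 by 0.34 (0.0209), COL1A2 was higher than under exon 7 by 0.39 (0.0383), and CD14 differed from exon 7 by -0.50 (0.0440). These are the comparisons in which MVK, MVD, INSIG2 and FADS2 were higher under exon 1, and the part of these markers there was not tested either. The adipocyte markers PLIN1 and FABP4 and the endothelial markers VWF, CDH5 and KDR were above background on 0 arrays. The adipocyte markers LPL, LEP, ADIPOQ and CIDEC were above background on 24, 21, 6 and 5 arrays, and the endothelial PECAM1 on 6. Of the hepatocyte markers, ALB was above background on 24 arrays, APOA1 and TTR on 1 each and CYP7A1 on 0. Those of these 3 lists that were tested passed in no comparison.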

How the data were processed

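The authors deposited 1 table of non-normalized log2 intensities per probe and array and 1 table of log2 values that share a common distribution over arrays (median 7.56) and keep the rank order of the first; both scales were read from the values, and which tools made them is not given in the sources used here. Of 47231 probes, 47228 were complete over the arrays, 30112 had 1 gene symbol, 8 several and 17108 none. Symbols were updated by gene number through RefSeq for 30073 probes.

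Non-normalized values were taken to the linear scale, background corrected with normexp (offset 16) using 437 olfactory receptor probes in place of negative controls, quantile normalised and log2 transformed (limma 3.58.1, R 4.3.3). Probes were kept with a surrogate detection p below 0.05 on at least 6 arrays (19395 probes), and the brightest kept probe stood for a gene. A model with 1 mean per siRNA group over all 24 arrays (lmFit, eBayes) gave 6 two-sided comparisons, adjusted by Benjamini-Hochberg over the 11029 genes.

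The titles tie each replicate number to 1 experiment, so the numbers pair the arrays. Deviations of same-numbered arrays from their group means correlated with a median of 0.238 (range 0.033 to 0.556), above 0.1 in 30 of 36 pairs. The fit with this block is an alternative, printed where it changed a call or moved a count of calls by over 1.5 times. It is also printed for MVD, LSS and SCD under exon 1. The fits without single arrays or without replicate 2 held no block.

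The 31 genes, the lists of related genes and markers, and the tests were chosen with earlier results of these data known. Every member is accounted for; levels in each group are given for members that passed in any comparison and for a preset set of central ones. Related genes are named where they passed against control, and the 5 genes most like the member mean by correlation. Promoter motifs were counted on both strands of RefSeq windows, of which FDFT1, SQLE, ACAT2 and FASN had none in the table used. The steps were tested on simulated data. Alternatives were other backgrounds, scalings, filters, probe rules and array weights, the column set as a block, the compared groups alone and leaving out each array. After the data were seen, each column set alone, both blocks together and the omission of replicate 2 were added. The columns name no chip, so a chip block could not be fitted.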

Additional observations from a re-analysis of the deposited data

Results flagged for a closer look

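In Dixon's test, which was run on 112 sets of 6 arrays (28 genes in 4 groups) and by chance marks about 1 in 20, 3 values stood apart from their group. LSS in exon 9 replicate 1 had the level 9.81, with the nearest of the other 5 arrays at 10.08. SREBF1 in control replicate 4 had the level 9.07, with the nearest at 9.42, in the replicate number in which SREBF1 was lowest over all groups. FASN in exon 1 replicate 2 had the level 12.81, with the nearest at 13.09, and without replicate 2 the FASN difference under exon 1 was -0.11 (adjusted p = 0.610, limma).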

How the results depend on the processing

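Of 870 recomputed values for the 30 called gene comparisons named in the text, 648 kept their direction and their call, 222 kept their direction and lost the call, and 0 changed sign. Of the members' 150 uncalled differences, 64 had the other sign in at least 1 column set, against 0 of 18 called ones. The called ones were selected over the same arrays, so this contrast stems in part from the selection and is no separate check. The counts follow as members called, then genes called, where they moved by over 1.5 times.

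With the replicate block as a fixed term, 2062 genes were called under exon 1, 2 members and 580 genes under exon 7, 3 and 1019 under exon 9, 2201 genes between exon 1 and exon 7, 9 members and 1866 genes between exon 1 and exon 9, and 1 and 1066 between exon 7 and exon 9; the block changed no other call of a gene named in the text than those given there. As a random block, it gave 1842 genes, 2 and 478, 3 and 832, 1996 genes, 1639 genes, and 1 and 886 in that order. Both blocks together gave 13 and 2523, 3 and 824, 3 and 1337, 13 and 2672, 10 and 2325, and 1 and 1430. The first 12 columns alone, with 3 arrays a group, gave 0 and 234, 0 and 24, 0 and 62, 2 and 300, 0 and 191, and 12 genes in the last comparison. The last 12 columns alone gave 0 and 97, 0 and 10, 0 and 38, 0 and 131, 0 and 41, and 36 genes, and in either set the replicate number test called 0 members and 1 gene. These fits have fewer arrays.

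Median scaling called 3 members under exon 1, 124 genes under exon 7 (56 higher and 68 lower, against 126 and 86), 250 under exon 9 (151 and 99, against 216 and 184), 2 members and 603 genes between exon 1 and exon 9, and 270 genes between exon 7 and exon 9. Under exon 9 it called 1 regulator higher and 0 fatty acid enzymes lower. It ended 11 of the 30 called comparisons: MVD, SCD, ELOVL6, NPC2, TMEM97 and ICMT under exon 1 (adjusted p of 0.0552, 0.0941, 0.0614, 0.144, 0.157 and 0.153), MBTPS1 under exon 7 (0.0818), FADS2 and PAQR3 under exon 9 (0.0652 and 0.0969), and MVK and FADS2 between exon 1 and exon 9 (0.0503 and 0.0623). Without background correction, and in the authors' normalized values, each called difference of FADS2 and PAQR3, and those of MVK other than between exon 1 and exon 9, shrank by over 1.5 times and 2 calls were lost, those of PAQR3 under exon 9 and of FADS2 between exon 1 and exon 9. The column set as a block moved no count by over 1.5 times and added SQLE and DHCR7 between exon 1 and exon 7. The compared groups alone gave 684 genes under exon 1, 124 under exon 7, 0 members under exon 9 and 2 between exon 1 and exon 9. Cyclic loess, the strict filter and array weights each gave 2 members under exon 9, and no filter and every kept probe each gave 2 between exon 1 and exon 9. Of the 30 calls, 13 were lost with the compared groups alone, 10 with every kept probe, 9 with no filter, 5 with the mean of the probes and 4 with array weights. The cause of these shifts was not tested. Under all 5 scalings 7 of 7 fatty acid enzymes lay below control in the 3 comparisons with it. Of these scalings, no background correction and the authors' values gave nearly the same differences. Of all 11029 genes, 5390, 5620 and 5528 lay below control under exon 1, exon 7 and exon 9 in the main fit. Under median scaling the counts were 5066, 7006 and 5288, and 17 of 17 sterol enzymes also lay below control under exon 7.

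Leaving out single arrays, or replicate 2, gave 3 to 5 members and 738 to 1264 genes under exon 1, 1 to 2 and 125 to 212 under exon 7, 0 to 2 and 265 to 404 under exon 9, 4 to 8 and 799 to 1505 between exon 1 and exon 7, 1 to 4 and 614 to 1103 between exon 1 and exon 9, and 0 members and 257 to 428 genes between exon 7 and exon 9. The replicate number test gave 6 to 11 members and 1558 to 2742 genes with 1 number left out. The probes of SREBF2 and STARD4 were near background and left out by the filter, so they were not tested. Probes at that level could not show a clear fall. A probe above background on all 6 arrays of 1 group would have been kept.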
